A study of Mus musculus with 18 samples.

Results

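The genes described are Lin28a, Lin28b, Myc and Mycn, 4 of the 18876 genes tested on a mouse whole-genome array, in embryonic stem (ES) cells, in their differentiated progeny and in germ cells sorted from mice. They were found by the gene name or an older synonym of it on the array, and 9 of 41002 probes carried one: 1 for Lin28a, 3 for Lin28b, 3 for Myc and 2 for Mycn. The rule that finds the probes uses names and no measured value. Each was represented by 1 probe, the brightest of those well above background on both arrays of at least 1 group, and all 4 genes passed that filter.

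RNA was hybridised in 1 colour to 18 arrays, 2 for each of 9 groups. The first groups were undifferentiated ES cells of 2 reporter lines, each sorted by its green fluorescent protein (GFP): Stella ES GFP-positive, Stella ES GFP-negative, Dazl ES GFP-positive and Dazl ES GFP-negative. The Stella line carries GFP on a bacterial artificial chromosome with Stella (Dppa3), a gene of the early germline and of naive pluripotency, and the Dazl line carries GFP for Dazl, whose product binds messages in germ cells. Both ES lines were kept in Lif medium on mouse embryonic fibroblast feeders. The next groups were GFP-positive cells after 7 days of differentiation (Stella day 7) or after 12 and 16 days (Dazl day 12, Dazl day 16) on gelatin, without feeders, named in vitro primordial germ cells in the labels. The last groups were Dazl-GFP-positive germ cells from embryonic gonads at E13.5 and from juvenile testes at P7-P11. Every sample carries a reporter transgene and is labelled as male and of a mixed C57BL/6 129SV background. Each line is a single line, GFP alone defined each sorted population, and the number of animals behind an in vivo sample is not given in the labels. Nothing in the labels says that the 2 samples of a group came from separate cultures or animals, so p-values measure only the spread between these samples.

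LIN28A and LIN28B are RNA-binding proteins with a cold-shock domain and zinc knuckles that bind the loop of let-7 precursors and block the maturation of let-7, a microRNA family of differentiated cells. LIN28 recruits the terminal uridylyltransferases TUT4 and TUT7, which add a tail of uridines to the precursor, and DIS3L2 degrades the tailed RNA. MYC and MYCN are transcription factors that pair with MAX on the E-box CACGTG and are best known for activating genes of ribosome production, nucleotide and polyamine synthesis and glycolysis; MYC sustains self-renewal of mouse ES cells grown with Lif. Both families are tied together, since let-7 represses Lin28, Myc and Mycn messages and MYC activates transcription of LIN28B in human cells. In mouse, Lin28 is known for its part in the formation of primordial germ cells, with the let-7 target Prdm1 as the link.

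The sequences that LIN28 acts on are shown first, as background to the let-7 target and let-7 processing lists used below. Those lists are fixed sets of gene symbols and were not derived from the sequences. The sequences are from RefSeq (GRCm38.p6). Of 10 mature let-7 sequences, 9 share the seed GAGGUAG (bases 2 to 8, in capitals), and let-7j has GAGGUAU. Levels of let-7 itself were not analysed here.
mmu-let-7a-5p (chr13:48538239-48538260, minus strand): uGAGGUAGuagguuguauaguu
mmu-let-7g-5p (chr9:106178846-106178867, plus strand): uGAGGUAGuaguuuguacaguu
mmu-let-7i-5p (chr10:122985698-122985719, minus strand): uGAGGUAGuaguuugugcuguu
mmu-let-7j (chr3:140028281-140028304, plus strand): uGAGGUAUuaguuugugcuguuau

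The zinc knuckles of LIN28 are known to prefer GGAG in the loop of the precursor. The letters GGAG lie between the arms in 9 of the 11 let-7 hairpins of the RefSeq table and are in capitals in Mirlet7g; the Mirlet7b and Mirlet7c-2 hairpins have none there. A match of these letters is a description and not a measured binding site.
Mirlet7g hairpin (chr9:106178840-106178927, plus strand): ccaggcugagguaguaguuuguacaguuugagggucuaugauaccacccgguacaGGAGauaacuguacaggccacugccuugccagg
Mirlet7b hairpin (chr15:85707319-85707403, plus strand): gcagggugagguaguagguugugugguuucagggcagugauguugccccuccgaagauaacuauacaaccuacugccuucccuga

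The promoters of the Lin28 paralogues are shown because the levels of these genes moved alike across the groups (below). They run from 250 bases before to 50 bases after the start site. The E-box CACGTG, the same on both strands, is in capitals: Lin28b has 1, at 49 bases before the start, and Lin28a and Mycn have none in this window. Among all 32851 promoters in the table, 2349 (7.15%) hold it. Myc has no entry among them, so its promoter was not examined.
Lin28b promoter (chr10:45470152-45470451, minus strand): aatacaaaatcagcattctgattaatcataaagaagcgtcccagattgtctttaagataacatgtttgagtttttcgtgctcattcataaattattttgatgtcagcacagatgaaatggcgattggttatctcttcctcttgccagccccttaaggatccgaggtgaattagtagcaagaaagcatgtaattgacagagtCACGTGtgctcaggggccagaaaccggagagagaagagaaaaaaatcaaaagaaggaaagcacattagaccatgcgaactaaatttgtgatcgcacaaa
Lin28a promoter (chr4:134018767-134019066, minus strand): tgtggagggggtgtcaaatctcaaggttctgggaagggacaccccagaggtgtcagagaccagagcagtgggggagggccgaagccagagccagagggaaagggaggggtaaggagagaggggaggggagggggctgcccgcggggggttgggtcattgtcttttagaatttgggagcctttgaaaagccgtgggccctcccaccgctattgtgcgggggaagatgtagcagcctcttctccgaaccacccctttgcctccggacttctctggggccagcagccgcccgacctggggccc

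A level here is the log2 of a probe's signal minus the log2 of the 75th percentile of the signals on its array, so 0 is that percentile. The 75th percentile lay between 99.9 and 467 signal units, 50.1% to 68.4% of probes on an array were well above background, and no spot was saturated; the number of arrays and the signal over background limit the precision. Replicate arrays correlated across genes at 0.943 (E13.5) to 0.994 (Stella day 7). The library labelled E13.5 replicate 1 stood apart: the Y-linked genes Ddx3y and Eif2s3y lay in its background (-7.45 and -7.29), while they were well above it in E13.5 replicate 2 (-1.37 and 3.17), although both are labelled male. Its level of the pluripotency factor Pou5f1 was 3.67, against 4.77 in E13.5 replicate 2, and that of Nanog was -0.82 against 1.34. Differences of the 4 genes at E13.5 relative to ES cells, and the counts of each list there, are given with and without it. For the other comparisons with E13.5 this is done only for some genes and lists. The juvenile testis arrays also differed, with a median of the panel of 9 Sertoli cell genes of 0.14 in replicate 1 and -1.61 in replicate 2, and a median of the 6 undifferentiated spermatogonia genes on the array of -2.90 and -0.82. Pou5f1 lay between 5.53 and 6.16 on the 8 ES arrays, and the germ cell gene Ddx4 at 1.73 and 1.68 in Dazl day 16 cells, 5.59 and 4.97 at E13.5 and 4.49 and 4.92 in juvenile testis. Because the RNA comes from sorted populations, fewer cells with a message and less of it per cell cannot be told apart.

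All 4 genes differed among the 9 groups in limma's F test, with adjusted p-values of 8.76e-08 for Myc, 1.22e-06 for Lin28b and 1.87e-05 for both Lin28a and Mycn. The same held for 76.2% of all genes tested, so being called by this test does not set them apart. The size of the range differed: the means of Myc spanned 8.11 log2 units between groups, more than 99.4% of genes. Its lowest mean was that of juvenile testis, well above background on 1 of 2 arrays. Lin28a spanned 4.15 (more than 89.1% of genes), Lin28b 3.97 (87.6%) and Mycn 3.26 (79.8%). All 4 were high in ES cells. They then parted, since both Lin28 genes were lowest in Dazl day 12 cells and both Myc genes in juvenile testis.

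**Figure D1:**
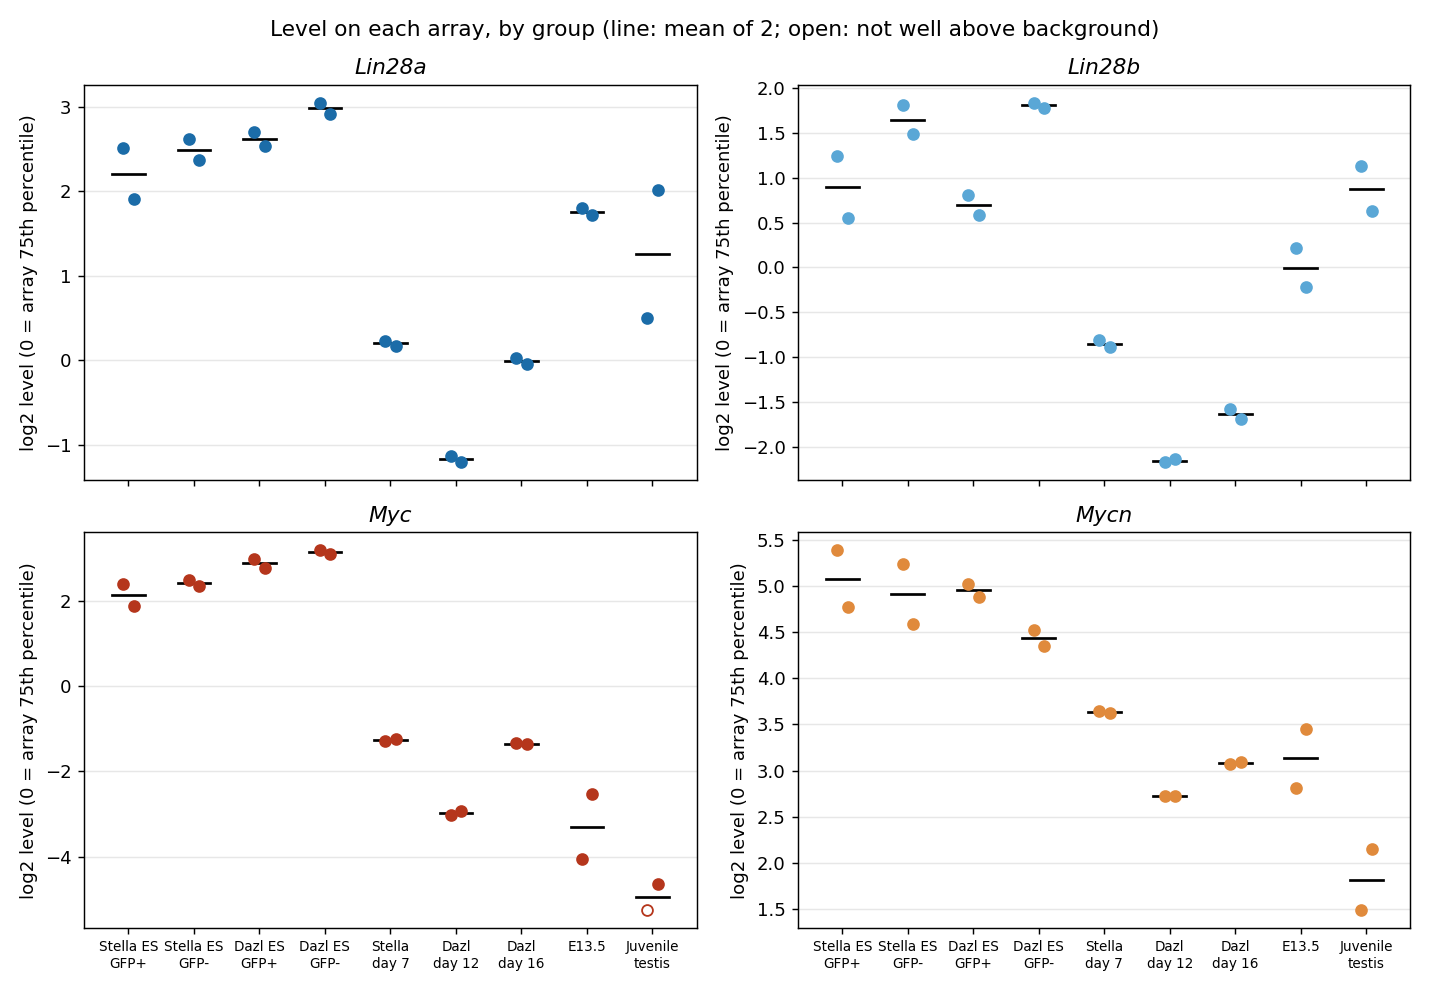
Level of each gene on every array (log2, 0 = the array's 75th percentile), by group; points are single arrays, lines the mean of 2, and an open point is not well above background. Lin28a and Lin28b are lowest in Dazl day 12 cells and higher again in germ cells from the animal, while Myc and Mycn are lowest in juvenile testis.

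Lin28a, the LIN28 paralogue best known from ES cells, had levels of 2.51 and 1.91 in Stella ES GFP-positive cells, 2.62 and 2.37 in Stella ES GFP-negative cells, 2.70 and 2.54 in Dazl ES GFP-positive cells and 3.04 and 2.92 in Dazl ES GFP-negative cells. Cells differentiated in culture had 0.23 and 0.18 (Stella day 7), -1.13 and -1.20 (Dazl day 12) and 0.03 and -0.04 (Dazl day 16). Germ cells from the animal had 1.80 and 1.72 at E13.5 and 0.51 and 2.01 in juvenile testis. No ES array overlapped with a culture array, and E13.5 lay between them. Between a culture group and the GFP-positive ES cells of its line, 68.7% (day 7), 75.9% (day 12) and 78.3% (day 16) of all genes did not overlap. In the order of means, the 3 ES groups below Dazl ES GFP-negative overlapped with their neighbours, as did E13.5 with juvenile testis, whose SD of 1.06 was the largest of Lin28a. The steps from juvenile testis to Stella day 7 and on to Dazl day 16 and Dazl day 12 did not overlap, but the first of them (1.05) was no larger than the juvenile SD.

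Lin28b, the paralogue that is nuclear in many cells and common in tumours, had levels of 1.25 and 0.55 in Stella ES GFP-positive cells, 1.81 and 1.49 in Stella ES GFP-negative cells, 0.81 and 0.59 in Dazl ES GFP-positive cells and 1.84 and 1.78 in Dazl ES GFP-negative cells. The culture groups had -0.81 and -0.89 (Stella day 7), -2.17 and -2.14 (Dazl day 12) and -1.58 and -1.69 (Dazl day 16). E13.5 germ cells had 0.22 and -0.22, and juvenile testis 1.13 and 0.63. The GFP-negative ES cells of both lines were thus at the top, the culture groups at the bottom, and juvenile testis overlapped with the GFP-positive ES cells of both lines. Across the 9 group means, Lin28a and Lin28b correlated at 0.94 (Pearson; Spearman 0.87), a description over groups that share slides and reference cells.

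The other Lin28b probes were dim and not always in step. One was well above background on 10 arrays and the other on 8, against 18 for the probe used, and both were below that mark on all Stella day 7, Dazl day 12 and Dazl day 16 arrays. Where the used probe fell by 0.70 at E13.5 relative to Dazl ES GFP-positive cells, these probes differed by -0.05 and 0.43. In the comparison of E13.5 with Dazl day 16 all 3 were higher at E13.5, by 1.64, 3.43 and 2.74, although the last 2 values rest on a dark side at day 16.

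Myc had the widest range of the 4. Its levels were 2.41 and 1.88 in Stella ES GFP-positive cells, 2.50 and 2.36 in Stella ES GFP-negative cells, 3.003 and 2.78 in Dazl ES GFP-positive cells and 3.20 and 3.12 in Dazl ES GFP-negative cells. In culture they were -1.28 and -1.24 (Stella day 7), -3.02 and -2.93 (Dazl day 12) and -1.33 and -1.36 (Dazl day 16). All ES arrays lay above all others. As given above, 68.7% to 78.3% of all genes did not overlap between a culture group and its GFP-positive ES cells. Levels were -4.06 and -2.53 at E13.5 and -5.25 and -4.66 in juvenile testis, where signals of 12.3 and 16.9 units were well above background on 1 of 2 arrays. E13.5 overlapped with Dazl day 12 and had an SD of 1.09, the largest of Myc. The Myc probe is printed in 10 spots on each array, whose SD was 0.056 to 0.082 on the 8 ES arrays and 0.071 to 0.221 on the other 10. A second Myc probe gave -5.87 for Dazl day 12 against Dazl ES GFP-positive cells, the same as the probe used, and -6.94 for E13.5 against these ES cells. The remaining Myc probe gave -5.26 and -4.22; the second probe was well above background on 1 of 2 arrays at E13.5 and the remaining one on none at day 12.

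Mycn, the MYC paralogue of embryonic tissues, had levels of 5.39 and 4.77 in Stella ES GFP-positive cells, 5.24 and 4.59 in Stella ES GFP-negative cells, 5.03 and 4.88 in Dazl ES GFP-positive cells and 4.52 and 4.35 in Dazl ES GFP-negative cells. The culture groups had 3.65 and 3.63 (Stella day 7), 2.73 and 2.72 (Dazl day 12) and 3.08 and 3.09 (Dazl day 16). E13.5 germ cells had 2.81 and 3.46, and juvenile testis 1.49 and 2.15. ES cells were again above all other groups, but Mycn remained well above background on all 18 arrays with both of its probes. E13.5 overlapped with Dazl day 16, and only juvenile testis lay below Dazl day 12. By the other Mycn probe E13.5 (-0.19 and 0.27) lay above Dazl day 16 (both -0.66). That probe gave -0.86 for Stella day 7 relative to Stella ES GFP-positive cells. Relative to Dazl ES GFP-positive cells it gave -1.95 at day 12, -1.60 at day 16, -0.90 at E13.5 and -2.20 in juvenile testis. Myc and Mycn correlated at 0.95 across the 9 group means (Spearman 0.80), and a Lin28 gene with a Myc gene at 0.53 to 0.67.

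**Figure D2:**
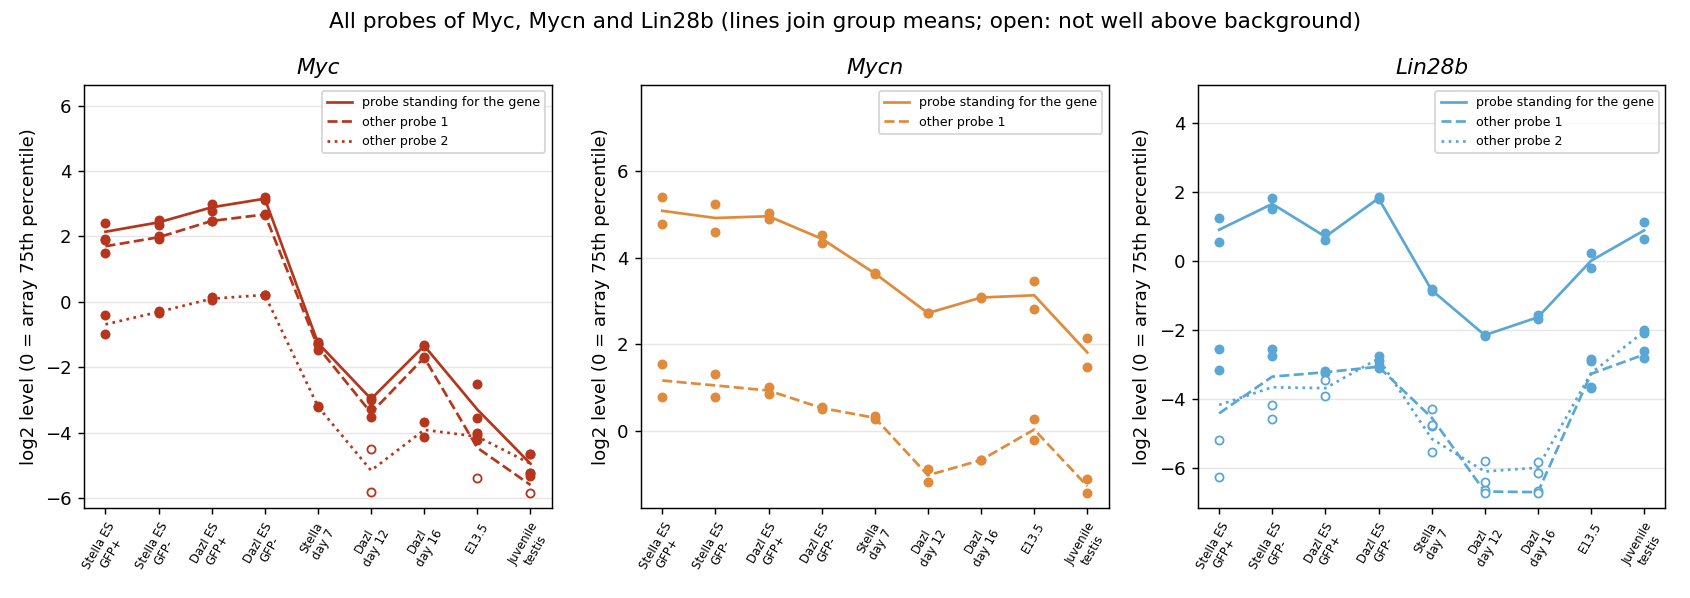
Levels of all probes of Myc, Mycn and Lin28b by group (log2, 0 = the array's 75th percentile); lines join group means, points are arrays, open where not well above background. All Myc probes are lower in culture than in ES cells, and the 2 dim Lin28b probes are open in all culture groups.

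The first comparisons set GFP-positive against GFP-negative cells within undifferentiated ES cells and address whether the reporter-positive fraction differs. In the Stella sort none of the 4 genes was called by limma, where 0.0901% of genes were called higher and 0.366% lower; 1 of the 4, Lin28b, had an unadjusted p under 0.05, as had 1236 of the 18876 genes (difference -0.75 ± 0.26 SE, adjusted p = 0.441). In the Dazl sort Lin28b fell to a mean of 0.70 ± 0.16 in GFP-positive cells, against 1.81 ± 0.04 in GFP-negative cells (SD, n = 2 each), a difference of -1.11 ± 0.26 (SE) or 2.16-fold, with limma's adjusted p = 0.0431. It was 1 of 4 called lower, where 1.43% of all genes were called lower and 1.41% higher. The call was lost without any one of the Dazl ES arrays (adjusted p = 0.165 to 0.272) and under 4 other settings, and the dim Lin28b probes gave differences of -0.16 and -0.86. Within slides the Lin28b difference was -1.03 and -1.20 in the Dazl sort and -0.56 and -0.94 in the Stella sort, lower in GFP-positive cells in 4 of 4 pairs. This was not particular to Lin28b. Lin28a (-0.11 to -0.46) and Myc (-0.09 to -0.48) were also lower in every pair, and Mycn was higher in every pair (0.15 to 0.54). The share of all genes with 1 sign in every pair was not computed. Of all genes, 59.5% did not overlap between the arrays of the Dazl sort and 30.2% between those of the Stella sort. Lin28a, Myc and Mycn differed by -0.36, -0.26 and 0.52 in the Dazl sort, with 95% intervals of -1.18 to 0.45, -1.12 to 0.59 and -0.15 to 1.18. Limma called no difference between the Stella and Dazl sorts for any of the 4 genes, and none had an unadjusted p under 0.05 (0.337 to 0.968); for Lin28b the sorts differed by 0.36 ± 0.36 (SE). Feeder and fibroblast genes moved with the Dazl sort: all 11 on the panel were well above background in Dazl ES GFP-positive cells, where their summed signal was 47.2 and 43.5 times the 75th percentile, against 10.5 and 9.91 times in GFP-negative cells with 9 and 11 well above background. Their part in the Lin28b difference was not tested.

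Differentiation of Stella-GFP cells for 7 days was set against Stella ES GFP-positive cells, and all 4 genes fell. Limma called 13.54% of all genes lower and 7.53% higher here. Myc fell most, to a mean of -1.26 ± 0.03 at day 7, against 2.15 ± 0.37 in ES cells (SD, n = 2 each), a difference of -3.41 ± 0.39 (SE), 10.6-fold, adjusted p = 0.000279. Lin28a fell by 2.00 (4.01-fold, adjusted p = 0.00373) and Lin28b by 1.75 (3.37-fold, adjusted p = 0.00103). Mycn fell by 1.44 (2.72-fold, adjusted p = 0.00709). The Mycn call was lost without Stella ES GFP-positive replicate 1 (adjusted p = 0.0551) and with normexp background correction (0.0786), and that of Lin28b with the mean over its probes (0.267). Day 7 arrays share no slide with the ES arrays and were read with another extraction protocol, so slide, protocol and group cannot be told apart in this comparison. The fibroblast panel was at 4.75 and 4.66 times the 75th percentile at day 7. In Stella ES GFP-positive cells it was at 21.3 times in replicate 1 and 7.07 times in replicate 2. Its part in these differences was not tested.

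In the Dazl line all 4 genes were called lower at day 12 relative to Dazl ES GFP-positive cells, where 14.9% of genes were lower and 12.7% higher. Myc averaged -2.97 ± 0.06 at day 12, against 2.89 ± 0.16 in ES cells (SD, n = 2 each), a difference of -5.87 ± 0.39 (SE) or 58.3-fold, adjusted p = 2.50e-06. Lin28a fell by 3.79 (13.8-fold, adjusted p = 4.18e-05), Lin28b by 2.86 (7.24-fold, adjusted p = 2.25e-05) and Mycn by 2.23 (4.70-fold, adjusted p = 0.000375). On the slide that held both groups the differences were -5.71, -3.74, -2.73 and -2.17, close to the values over all arrays.

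At day 16 all 4 genes were still lower than in the same ES cells, beside 14.1% of genes called lower and 10.8% higher. Myc fell by 4.24 (18.9-fold, adjusted p = 3.12e-05) and Lin28a by 2.62 (6.16-fold, adjusted p = 0.000529). Lin28b fell by 2.34 (5.05-fold, adjusted p = 0.000102), a call that normexp background correction ended (-0.83, adjusted p = 0.0638). Mycn fell by 1.87 (3.67-fold, adjusted p = 0.00123). Within the shared slide the differences were -4.14, -2.58, -2.28 and -1.80. The panel of 7 pluripotency genes, with Pou5f1 and Sox2, had medians of 3.81 to 4.02 in Dazl day 12 and day 16 cells, against 4.37 and 4.45 in Dazl ES GFP-positive cells, and Pou5f1 had levels of 4.37 to 4.71, against 5.74 and 5.82, and Nanog, another core pluripotency factor, 3.56 to 3.74, against 2.59 and 2.71. The fibroblast panel was at 3.08 to 3.83 times the 75th percentile at days 12 and 16, against 47.2 and 43.5 times in those ES cells. Its part in the differences was not tested.

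Between day 12 and day 16 no member was called by limma, where 0.615% of genes were called higher and 0.381% lower, and 2 of the 4 had an unadjusted p under 0.05, as had 1463 of the 18876 genes. All 4 values were higher at day 16 in both slide pairs. Such separation was common, since 64.2% of all genes did not overlap between these groups, in either direction. Myc differed by 1.63 ± 0.39 (SE; adjusted p = 0.0990), 1.69 and 1.57 within slides, and Lin28a by 1.16 ± 0.37 (adjusted p = 0.303), 1.16 and 1.17 within slides. Lin28b differed by 0.52 and Mycn by 0.36. The call depends on whose spread is used: the SDs of these groups were 0.08 or less for every member, and a fit of these 4 arrays alone called all 4 higher (adjusted p = 0.0128 to 0.0306), beside 1520 of the 18876 genes higher and 2212 lower, while without E13.5 replicate 1 only Myc was called (adjusted p = 0.00388). Under normexp correction the Mycn value turned to -0.24.

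Germ cells at E13.5 were compared with Dazl ES GFP-positive cells and with Dazl day 16 cells, the second to ask how the cultured cells relate to those of the embryo; the day 12, day 16, E13.5 and juvenile comparisons with ES cells share the same 2 ES arrays. Relative to ES cells, Myc differed at E13.5 by -6.19 ± 0.39 (SE; 72.9-fold lower, adjusted p = 5.01e-07) and Mycn by -1.82 ± 0.30 (3.54-fold lower, adjusted p = 0.000556). Lin28b fell by 0.70 (1.62-fold, adjusted p = 0.0438), a call that ended under 7 of 13 alternatives, and Lin28a differed by -0.86 (adjusted p = 0.0814) and was not called. Limma called 22.6% of genes lower and 22.3% higher in this comparison. The fibroblast panel was at 1.66 and 1.95 times the 75th percentile at E13.5, and its part in these differences was not tested. Without E13.5 replicate 1 the differences were -5.42 for Myc, -1.50 for Mycn, -0.92 for Lin28b and -0.90 for Lin28a, with the first 3 called.

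Against Dazl day 16 cells both Lin28 genes were higher and Myc was lower. Lin28a rose to a mean of 1.76 ± 0.05 at E13.5, against -0.00 ± 0.05 at day 16 (SD, n = 2 each), a difference of 1.76 ± 0.37 (SE), 3.40-fold, adjusted p = 0.00285. Lin28b rose by 1.64 ± 0.26 (3.11-fold, adjusted p = 0.000435; 0.50 and adjusted p = 0.0865 with normexp correction). Myc fell by 1.95 ± 0.39 (3.87-fold, adjusted p = 0.0021), with E13.5 replicate 2 at -2.53 and both day 16 arrays at -1.33 and -1.36. Mycn differed by 0.05, with an interval of -0.61 to 0.72, and its groups overlapped. The other Mycn probe, well above background on all these arrays, differed by 0.70, and its groups did not overlap. With normexp correction Mycn was called higher (0.77, limma adjusted p = 0.0318), in a setting where 4748 of the 18876 genes were called higher and 9028 lower. In this comparison 23.1% of genes were called higher and 18.8% lower. Without E13.5 replicate 1 the values were 1.73 for Lin28a, 1.42 for Lin28b and -1.18 for Myc, all still called. The Myc call was lost when only the 4 arrays compared were fitted (adjusted p = 0.108), and its other probes differed by -2.76 and -0.21. The E13.5 arrays share no slide with cultured cells, so slide and group cannot be told apart.

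In juvenile testis Myc and Mycn were at their lowest, whereas Lin28b overlapped with GFP-positive ES cells. Relative to Dazl ES GFP-positive cells Myc fell by 7.85 ± 0.39 (SE; 230-fold, adjusted p = 5.54e-08), a size that rests on juvenile signals well above background on 1 of 2 arrays (-7.55 without the dim array, replicate 1), and Mycn by 3.14 ± 0.30 (8.81-fold, adjusted p = 7.43e-06). The other Myc probes gave -5.05, with both juvenile arrays well above background, and -8.08, with 1 of 2 arrays well above it. Lin28b differed by 0.18, with an interval of -0.38 to 0.74. Lin28a fell by 1.36 (2.57-fold, adjusted p = 0.00904), but the replicates had an SD of 1.06, and without juvenile testis replicate 1 the difference was -0.61 (adjusted p = 0.0538). Beside these, 28.1% of genes were called lower and 25.8% higher. The fibroblast panel was at 7.78 and 9.03 times the 75th percentile in juvenile testis, and its part in these differences was not tested. Juvenile arrays lie on another slide than ES cells, so slide and group cannot be told apart.

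The juvenile and E13.5 germ cells share a slide. There Myc fell in juvenile testis by 1.66 (3.16-fold, adjusted p = 0.00652; well above background on 1 of 2 juvenile arrays) and Mycn by 1.32 (2.49-fold, adjusted p = 0.00585), while Lin28b rose to 0.88 ± 0.35 in juvenile testis, against -0.00 ± 0.31 at E13.5 (SD, n = 2 each), by 0.88 (1.84-fold, adjusted p = 0.0196). Limma called 18.3% of genes lower and 16.5% higher. All 3 calls were lost when only these 4 arrays were fitted (adjusted p = 0.192 to 0.280), and without juvenile testis replicate 1 only Mycn remained called. The Myc call was also lost with the stricter filter on dim probes, which takes another probe (-0.83, adjusted p = 0.102), and the Lin28b call with the mean over probes (0.266) and without E13.5 replicate 2 (0.105). Without E13.5 replicate 1 the differences were -2.43 for Myc, -1.64 for Mycn and 1.10 for Lin28b. Lin28a differed by -0.50, and the value depended on the juvenile array: it was 0.25 without replicate 1 and -1.25 (adjusted p = 0.00244) without replicate 2. Lin28a was at 0.51 in replicate 1, which had the higher Sertoli panel, and at 2.01 in replicate 2, which had the higher spermatogonia panel; the part of these cells in the value was not tested.

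**Figure D3:**
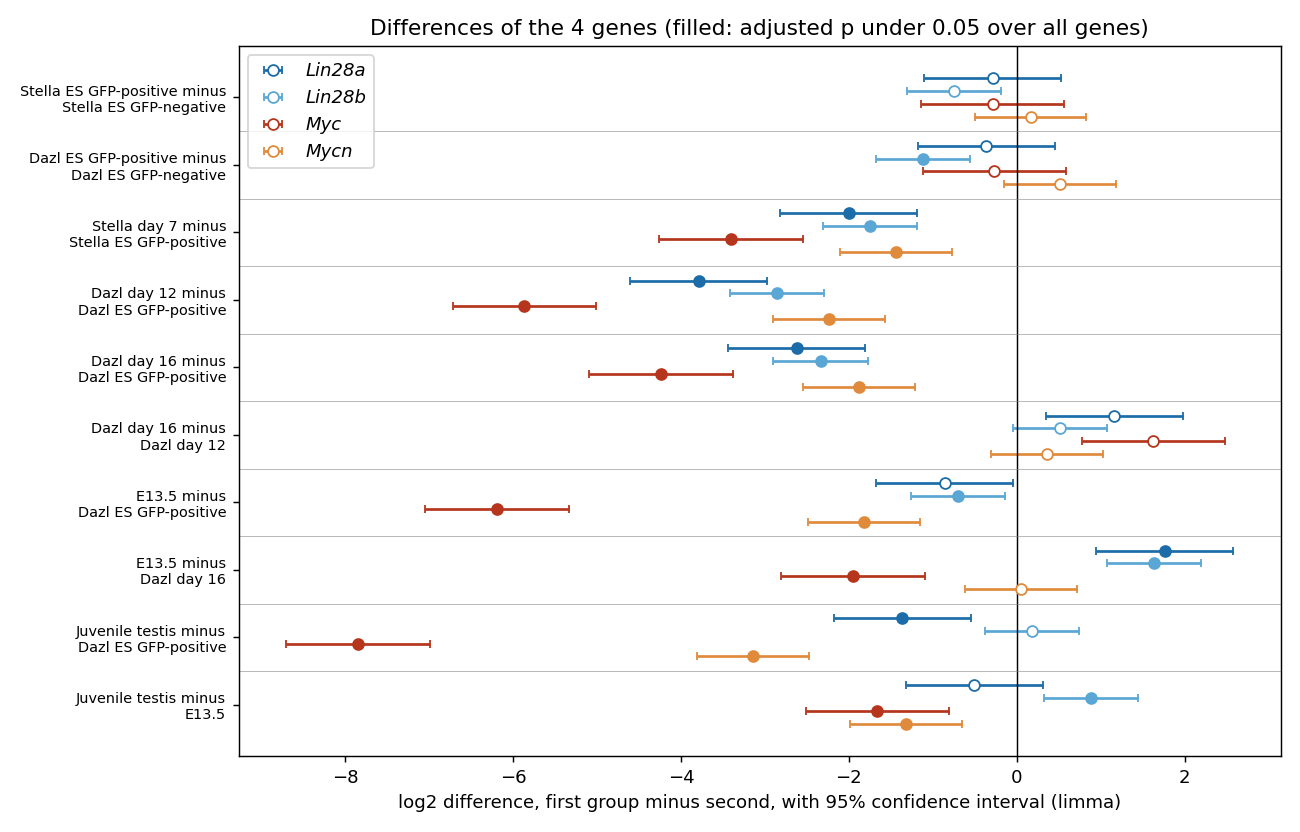
Log2 difference of each gene in 10 comparisons, first named group minus second, with 95% confidence intervals from limma; filled points have an adjusted p under 0.05 over all genes. All 4 genes lie left of 0 at day 7, day 12 and day 16 relative to ES cells, and the Lin28 genes lie right of 0 and Myc left of it for E13.5 against Dazl day 16.

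A list of 36 genes known as MYC targets, most of them for making ribosomes and nucleotides, was all tested. In Stella day 7 cells 12 fell and none rose, with a median difference of -0.74, against -0.16 for all genes. Of all genes tested, 13.54% were called lower and 7.53% higher there. Among the genes of smallest p were Odc1, the rate-limiting enzyme of polyamine synthesis, which fell by 1.73 (3.32-fold, limma adjusted p = 0.000561), and Bop1, a factor of large ribosomal subunit assembly, which fell by 1.55 (2.92-fold). The nucleoside diphosphate kinase Nme1 fell by 1.97. The count was 2 higher and 7 lower with quantile normalization, 2 lower with normexp correction and 20 lower with 1 higher without E13.5 replicate 1.

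In Dazl day 12 cells 18 of the 36 fell and none rose (median -0.97, against -0.13 for all genes), and at day 16, 16 fell and none rose (median -0.84, against -0.17). Of all genes tested, 14.9% were called lower and 12.7% higher at day 12, and 14.1% and 10.8% at day 16. Odc1 fell by 1.93 (3.80-fold, adjusted p = 0.000139) at day 12 and by 1.12 (2.17-fold) at day 16. Polr1b, a subunit of RNA polymerase I, differed by -1.54 at day 12 and by -1.33 at day 16, and Rrp12, a ribosome biogenesis factor, fell by 1.58 at day 12. The list also holds genes that MYC is known to repress: the cell cycle inhibitor Cdkn2b differed by -2.55 (5.85-fold lower) at day 12 and by -2.75 (6.74-fold lower) at day 16, and the inhibitor Cdkn1a fell by 0.85 at day 16. Both inhibitors were called higher in the Dazl sort, Cdkn2b at 2.91 in GFP-positive cells, against 0.74 in GFP-negative cells, and Cdkn1a at 2.10 against 1.28. In that sort 2 of 36 rose and none fell, beside 1.41% of all genes called higher and 1.43% lower. Cdkn2b averaged 0.36 at day 12, closer to its level in GFP-negative cells than to that in GFP-positive cells, the reference used here. The fibroblast panel was at 47.2 and 43.5 times the 75th percentile in that reference, against 10.5 and 9.91 times in GFP-negative cells. Its part in the list differences was not tested. With normexp correction 8 fell at day 12 and 12 at day 16, and without E13.5 replicate 1 the counts were 25 and 23. Limma called none of the 36 between day 16 and day 12, where 3 had an unadjusted p under 0.05, and none in the Stella sort, where 0 had one.

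At E13.5 13 of the 36 fell and 1 rose relative to Dazl ES GFP-positive cells (median -0.57, against -0.00 for all genes). In that comparison 22.6% of all genes were called lower and 22.3% higher. Ldha, the lactate dehydrogenase of glycolysis, fell by 4.497 (22.6-fold, limma adjusted p = 5.13e-06), Tfrc, the transferrin receptor, differed by -1.64, and Cad, an enzyme of pyrimidine synthesis, rose by 0.85. The fibroblast panel was at 1.66 and 1.95 times the 75th percentile at E13.5, against 47.2 and 43.5 times in those ES cells. Its part in the differences of any list gene between germ cells and these ES cells was not tested. Without E13.5 replicate 1 the counts were 3 higher and 8 lower with a median of -0.10, and with normexp correction 3 and 8, with a median of -0.07 against -0.51 for all genes. Against Dazl day 16 cells 7 rose and 4 fell (median 0.26, against 0.15), and the split moved most here: 5 and 5 with quantile normalization (median -0.04), 21 and 2 with normexp correction, and 16 and 4 without E13.5 replicate 1 (median 0.72). Among those higher were Rrp12 by 1.70, the box C/D snoRNP protein Nop56 by 1.17 and the DNA repair enzyme Apex1 by 1.28, and among those lower Ldha differed by -4.23. Of all genes, 23.1% were called higher and 18.8% lower at E13.5 than at day 16. With normexp correction 4748 of the 18876 genes were called higher and 9028 lower there. Myc itself was lower at E13.5 than at day 16.

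In juvenile testis 22 of the 36 fell and 1 rose relative to ES cells (median -1.16, against -0.03). Relative to E13.5 12 fell and 1 rose (median -0.57, against -0.06, and 11 and 4 with quantile normalization). Of all genes, 28.1% were called lower and 25.8% higher relative to ES cells, and 18.3% and 16.5% relative to E13.5. Relative to ES cells Ldha differed by -6.25 (76.1-fold lower, adjusted p = 2.71e-07), Odc1 by -3.34 (10.1-fold lower) and Cdkn1a by -3.57 (11.9-fold lower). The chaperonin Hspd1 fell by 1.76 (3.38-fold) relative to E13.5. With normexp correction 12 fell and 2 rose relative to ES cells, and the list median of -0.47 lay above that of all genes (-0.65); without E13.5 replicate 1, 21 fell relative to E13.5.

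Of 19 partners and antagonists of MYC, 3 rose and 2 fell in Stella day 7 cells (median 0.01), 3 rose and 3 fell at Dazl day 12 (0.20), and 4 rose and 3 fell at Dazl day 16 (0.09), beside medians of all genes of -0.16, -0.13 and -0.17. The shares of all genes called higher and lower were 7.53% and 13.54% at day 7, 12.7% and 14.9% at day 12, and 10.8% and 14.1% at day 16. Mxd1, Mxi1 and Mxd4, whose products compete with MYC for MAX, were among those that rose. Mxd1 rose by 1.33 (2.51-fold, limma adjusted p = 0.048) at day 12 and by 1.59 (3.01-fold) at day 16. Mxi1 rose by 0.69 at day 12 and by 0.62 at day 16, and Mxd4 by 1.41 at day 16. At E13.5 Mxd4 rose by 2.96 (7.78-fold, adjusted p = 0.000201) and in juvenile testis by 3.58 (12.0-fold, adjusted p = 3.50e-05) relative to ES cells. The AAA ATPases Ruvbl1 and Ruvbl2, which MYC recruits with chromatin remodellers, differed at day 12 by -0.96 and -1.13, both called, and Ruvbl2 by -1.60 at E13.5 and -2.51 in juvenile testis. Neither partners nor antagonists moved in 1 direction only. Wdr5 was called higher at day 12 (0.99) and day 16 (0.92), and Ep400 at E13.5 (1.12) and in juvenile testis (1.34). Mnt was called lower at E13.5 (-0.77, limma adjusted p = 0.0349). Max, the shared partner, differed by -0.50 at day 12, -0.48 at day 16 and 0.01 at E13.5, none called, and fell by 0.95 (adjusted p = 0.0322) in juvenile testis; it was singled out for its role, also where the rule for named genes does not choose it. Mycl, the remaining MYC paralogue, fell by 1.24 in the Dazl sort (adjusted p = 0.0375), rose by 1.11 at E13.5 and fell by 0.79 (adjusted p = 0.0300) in juvenile testis relative to Dazl ES GFP-positive cells. Over the list 6 rose and 2 fell at E13.5 (median 0.16), and 7 rose and 5 fell in juvenile testis (median 0.39) relative to ES cells, in juvenile testis 9 and 3 with quantile normalization and 10 and 2 with normexp correction. All genes were called higher in 22.3% and lower in 22.6% at E13.5 and in 25.8% and 28.1% in juvenile testis. Without E13.5 replicate 1 the list gave 5 and 5 at day 12 and 5 and 2 at E13.5 (median 0.48). The splits also moved by setting in culture, to 4 higher and 1 lower at both day 12 and day 16 with quantile normalization, and to 2 and 0 and to 0 and 3 with normexp correction.

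Of 12 genes that control the stability of MYC protein, 1 rose and 2 fell in Stella day 7 cells, 1 rose and 3 fell at Dazl day 12 and 1 rose and 2 fell at Dazl day 16, with medians of -0.20, -0.28 and -0.41. Among all genes 7.53% were called higher and 13.54% lower at day 7, 12.7% and 14.9% at day 12, and 10.8% and 14.1% at day 16. The gene that rose each time was Btrc, a substrate receptor of SCF ubiquitin ligases, by 1.61 (3.06-fold, adjusted p = 0.000114), 1.41 and 1.27. Usp36, a nucleolar deubiquitinase that stabilises MYC, differed by -1.52 at day 12 and by -1.09 at day 16, both called. At E13.5 3 rose and 3 fell, with Fbxw7, the receptor that marks MYC for degradation, higher by 0.89 (adjusted p = 0.00542), and Skp2, another ubiquitin ligase receptor, at -0.80 ± 1.25 against 1.33 ± 0.12 in ES cells (SD, n = 2 each), called lower (limma adjusted p = 0.00325). The median at E13.5 was -0.22, against -0.00 for all genes, and turned to 0.33 with 4 higher and 2 lower without E13.5 replicate 1. Without that library 1 rose and 4 fell at day 7, 1 rose and 5 fell at day 12 and 2 rose and 6 fell at day 16. In juvenile testis 4 rose and 5 fell relative to ES cells (median -0.04, against -0.03 for all genes), and Fbxw7 rose by 0.78. Shares of all genes called were 22.3% higher and 22.6% lower at E13.5 and 25.8% and 28.1% in juvenile testis, so the counts of this list are near them. Quantile normalization gave 2 higher and 0 lower at day 7, 1 and 1 at day 12 and at day 16, and 4 and 3 in juvenile testis.

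In the let-7 and microRNA processing list 17 of 20 genes were tested. Of the enzymes that act on let-7 precursors bound by LIN28, Tut4 and Dis3l2 rose at days 12 and 16, when both Lin28 genes were lower: Tut4, which adds the uridines, rose by 1.67 (3.18-fold, adjusted p = 0.00157) at Dazl day 12 and by 1.71 (3.26-fold, adjusted p = 0.00152) at day 16, and Dis3l2, the nuclease of the tailed RNA, by 1.87 (3.65-fold, adjusted p = 0.000485) and 1.71. At E13.5 and in juvenile testis Tut4 rose by 1.35 and 1.85 and Dis3l2 by 1.33 and 0.84, relative to the same ES cells. Tut7 differed by -0.44 at day 12 and -0.35 at day 16, neither called, and by -1.19 at E13.5 and -1.31 in juvenile testis, both called; its culture values were chosen after they were seen. The Dicer cofactor Tarbp2 differed by -1.23 at day 12 and by -1.16 at day 16, and the Argonaute Ago2 fell by 3.44 (10.8-fold, adjusted p = 3.50e-07) in juvenile testis, where Ago3 rose by 2.05. Over the list 1 rose and 1 fell at Stella day 7 (all genes 7.53% higher and 13.54% lower), 2 rose and 1 fell at both day 12 and day 16 (medians -0.42 and -0.27; all genes 12.7% higher and 14.9% lower at day 12), 5 rose and 2 fell at E13.5 (median 0.10, and 0.37 without E13.5 replicate 1, with the same counts), and 4 rose and 5 fell in juvenile testis (0.01; 7 and 4 with quantile normalization). These counts in culture are near the shares of all genes, which were 10.8% higher and 14.1% lower at day 16. At E13.5 the shares were 22.3% higher and 22.6% lower, and in juvenile testis 25.8% and 28.1%. With normexp correction 1 gene of the list rose at day 12 and none at day 16, so the Tut4 and Dis3l2 calls did not both hold there.

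Of 30 let-7 targets 27 were tested, and they did not move one way. Limma called none in the Dazl sort, where 8 of the 27 and 2548 of all 18876 genes had an unadjusted p under 0.05 and 4 were called lower without E13.5 replicate 1, and none in the Stella sort, where 2 had one. In Stella day 7 cells 5 rose and 6 fell (median 0.12, against -0.16 for all genes), at Dazl day 12, 3 rose and 8 fell (-0.13, against -0.13) and at Dazl day 16, 4 rose and 5 fell (0.02, against -0.17). Beside these, 7.53% of all genes were called higher and 13.54% lower at day 7, 12.7% and 14.9% at day 12, and 10.8% and 14.1% at day 16. The chromatin protein gene Hmga1 differed by -1.39 at day 7, -1.67 at day 12 and -1.75 at day 16, all called. The RNA-binding protein gene Igf2bp1 fell by 1.81 at day 12, and the cyclin gene Ccnd1 differed by -2.68 at day 7, -2.20 at day 12 and -1.86 at day 16, all called. The transcription factor gene E2f5 rose by 0.97, 1.07 and 1.06. With quantile normalization 7 rose and 4 fell at day 7 and 5 rose and 4 fell at day 16, and with normexp correction 1 rose and 3 fell at day 7, 1 rose and 4 fell at day 12 and 0 rose and 3 fell at day 16.

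In the animal, 8 of the 27 let-7 targets rose and 9 fell at E13.5 relative to ES cells (median 0.05, against -0.00 for all genes), and 5 rose and 12 fell in juvenile testis (median -0.22, against -0.03). All genes were 22.3% higher and 22.6% lower at E13.5 and 25.8% and 28.1% in juvenile testis; without E13.5 replicate 1, 10 targets rose and 9 fell at E13.5. Hmga2, a chromatin protein of embryonic tissue and a classic let-7 target, differed by -3.06 (8.35-fold lower, adjusted p = 1.47e-06) at E13.5 and by -5.91 (60.2-fold lower, adjusted p = 8.30e-09) in juvenile testis. Prdm1, the repressor that specifies primordial germ cells, rose by 1.76 (3.39-fold, adjusted p = 0.00485) at E13.5 relative to ES cells and by 2.33 (5.03-fold, adjusted p = 0.000999) relative to Dazl day 16 cells. In juvenile testis it fell by 5.68 (51.4-fold) relative to E13.5, where it was well above background on 1 of 2 juvenile arrays. Between E13.5 and Dazl day 16 cells 23.1% of all genes were called higher at E13.5 and 18.8% lower. Relative to Dazl day 16 cells 7 of the targets rose and 7 fell at E13.5, with quantile normalization 4 and 8, with normexp correction 9 and 6 and without E13.5 replicate 1, 8 and 7.

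**Figure D4:**
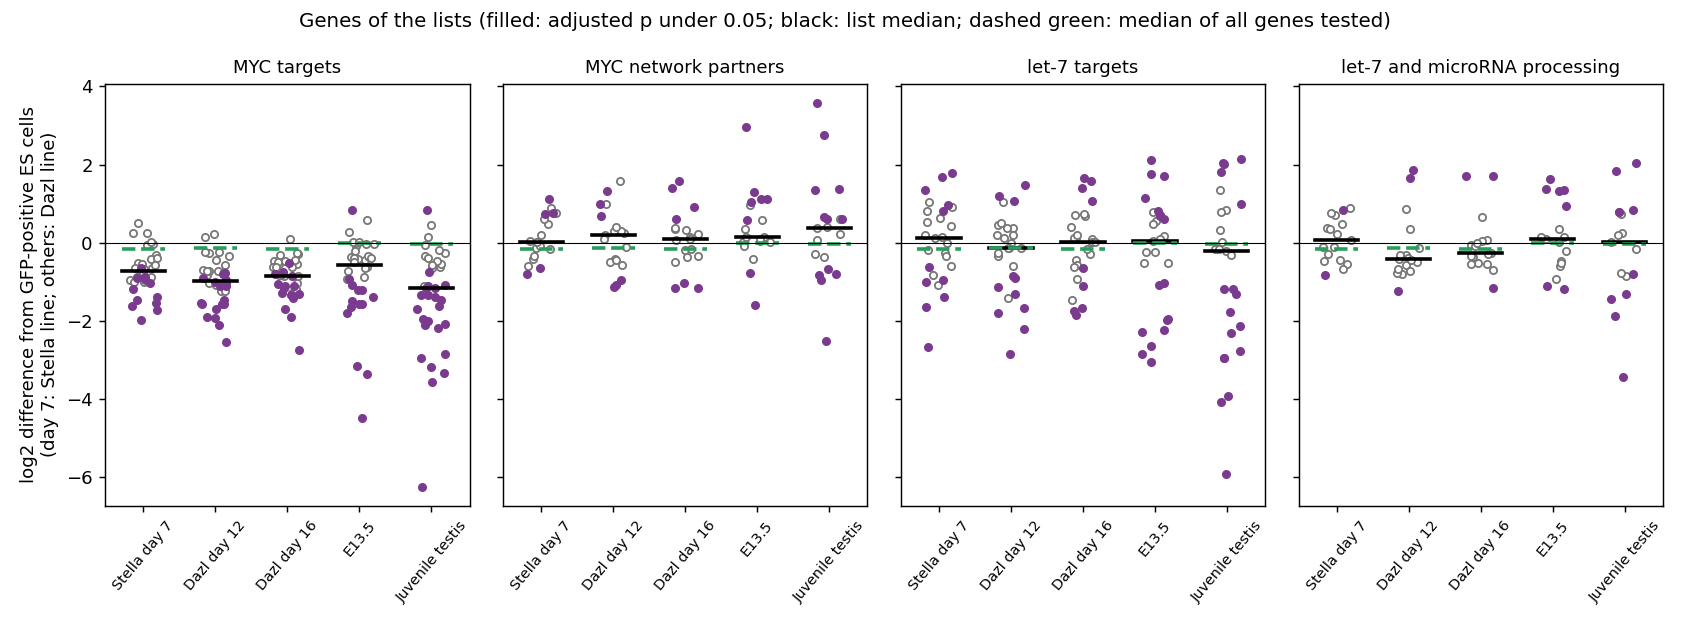
Log2 differences from GFP-positive ES cells of the genes of 4 lists (1 point per gene; filled where the adjusted p is under 0.05), with the list median in black and the median of all genes dashed in green. As plotted, the median of the MYC targets lies below that of all genes in all 5 comparisons, from -0.57 at E13.5 to -1.16 in juvenile testis; with normexp correction it lies above it at E13.5 and in juvenile testis.

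The genes whose 9 group means were most like those of a member were taken by Pearson correlation over all genes with a name; with 9 groups of shared cells this describes likeness only. Nearest to Myc were Slc7a7 (0.993), Ppp2ca, Acsl5, Ccdc85a and Cdipt, down to 0.987, and nearest to Mycn were Cdkn2aipnl (0.989), Aoah, Dhx15, Srm and Tomm40, down to 0.986. Srm, the spermidine synthase, is also on the MYC target list. Nearest to Lin28a were Imp4 (0.986), Wdr4, Phf5a, Apex2 and Ncln (0.969), and nearest to Lin28b were Coro1a (0.984), Fam207a, Eif6, Gba2 and Slc16a13 (0.972). No gene was on 2 of these 4 short lists.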

How the data were processed

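The authors deposited, per the file headers, 1-colour Agilent scans read with Feature Extraction 9.1.3.1; the intensity used is the background-subtracted processed signal, not scaled between arrays. The deposited table holds group mean intensity normalized to the median in GeneSifter by the authors, per the file headers, and served as an alternative. From 43379 spots that are not controls, 172 probes with outlier flags were left out, spots of a probe were averaged and log2 levels of the deposited signals taken relative to the 75th percentile. A probe had to be well above background on both arrays of a group (28114 probes, 18876 genes). The 9 groups were fitted with limma 3.58.1 in R 4.3.3 (9 residual and 2.38 prior degrees of freedom, prior SD 0.288); two-sided p-values were adjusted by Benjamini-Hochberg over all genes, and genes under 0.05 were called. Tables and plots were made with the R package data.table (version 1.17.8), matplotlib 3.10.9 and pandas 2.3.3 under Python 3.11.15. The fit was tested on simulated data. Named genes are the members, the label checks, at most 4 called genes per list, direction and comparison by smallest p, and the 5 genes most like each member. The members and lists were chosen with earlier results of these data known. Alternatives were quantile normalization, normexp (offset 50), other filters, the mean over probes, an intensity trend, slide or replicate number as a block, only the arrays compared, and each array left out.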

Additional observations from a re-analysis of the deposited data

How the results depend on the processing

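All 4 genes stayed lower at Dazl day 12 in all 14 alternatives, and Myc and Lin28a stayed called lower at day 7 and day 16. The number of members called moved by over 1.5 times as follows. In the Dazl sort it was 0, in place of 1, with normexp correction, no filter on dim probes, the mean over probes and slide as a block. For Dazl day 16 against day 12 it was 2 with normexp correction, 1 with the mean over probes, 4 with only the arrays compared and 1 without E13.5 replicate 1, in place of 0. Beside the day 16 against day 12 counts, 5957 of the 18876 genes were called higher and 1852 lower with normexp correction. The numbers were 133 and 73 with the mean over probes and 1520 and 2212 with only the arrays compared, in place of 116 and 72. For juvenile testis against E13.5 the number of members called was 0 with only the arrays compared, in place of 3, beside 184 genes higher and 160 lower. By 1 member it also changed at day 7 (3 with normexp correction and the mean over probes), at day 16 (3 with normexp correction), for juvenile testis against ES cells (2 with normexp correction and with only the arrays compared) and against E13.5 (2 with the stricter filter and the mean over probes), and for E13.5 against ES cells (2 under 4 settings) and against day 16 (2 with only the arrays compared). Leaving out 1 array gave 0 to 0 members called in the Stella sort, 0 to 1 in the Dazl sort, 3 to 4 at day 7, 4 to 4 at day 12 and day 16, 0 to 1 for day 16 against day 12, 2 to 3 for E13.5 against ES cells, 3 to 3 for E13.5 against day 16, 2 to 3 for juvenile testis against ES cells, 1 to 4 for juvenile testis against E13.5 and 4 to 4 in the F test; a lone array was taken to vary like the other groups.

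Of single values, 33 calls were lost and 10 gained over all alternatives, and 9 values not called turned sign; the cause was not tested. In the Stella sort Mycn turned to -0.0084 with normexp correction, -0.16 without Stella ES GFP-negative replicate 2 and -0.14 without Stella ES GFP-positive replicate 1 (range -0.16 to 0.49 over arrays left out), and Lin28a to 0.018 without Stella ES GFP-positive replicate 2 (-0.59 to 0.018). Mycn turned to -0.24 at day 16 against day 12 with normexp correction, and at E13.5 against day 16 to -0.24 with quantile normalization and -0.27 without E13.5 replicate 2 (-0.27 to 0.37), and was called higher (0.77, adjusted p = 0.0318) with normexp correction. Without juvenile testis replicate 1, Lin28b turned to -0.064 against ES cells (-0.064 to 0.43) and Lin28a to 0.25 against E13.5 (-1.25 to 0.25). Normexp correction also moved the median of all genes, which was -0.65 in place of -0.03 for juvenile testis against ES cells and -0.56 in place of 0.15 for E13.5 against day 16. For E13.5 against day 16 it called 4748 of the 18876 genes higher and 9028 lower, in place of 4360 and 3547. With the replicate block the number of members called was the same in all 10 comparisons (1 in the Dazl sort, 3 for juvenile testis against E13.5) and 4 in the F test; deviations of same-numbered arrays correlated at 0.558 in the Stella sort, 0.41 in the Dazl sort and 0.549 for day 16 against day 12, where such arrays share slides, and at -0.05 to 0.329 in the other comparisons; the labels do not say that the numbers pair samples, and 2 pairs cannot settle it. The authors' deposited table of group means gave the same direction as the arrays for all 4 genes in all 10 comparisons, as values with no test. For the F test slide was a random block, since a fixed one could not be fitted.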
